A study of Mus musculus with 2 samples.

Results

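The SMAD family of intracellular signal carriers was read in embryonic mouse ureters in which Smad4 had been made deletable. The members were the probes whose gene name in the scanner output was Smad1, Smad2, Smad3, Smad4, Smad5, Smad6, Smad7 or Smad9, with control spots left out. This gave 13 probes for 8 genes, of 39429 probes and 29875 gene names on the array, and all 13 were above background on both arrays. Smad1 had 3 probes, Smad3, Smad4 and Smad5 had 2 each, and the others had 1.

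Ureters were dissected at E14.5 from mice of the NMRI strain. The labelled knockout carried Cre under the Pax2 promoter, in 1 copy, and 2 floxed alleles of Smad4 (Pax2-cre/+;Smad4(fl/fl) in the series title, Pax-cre in the sample labels), and the labelled control was Smad4(fl/?), so it too carried a floxed allele, with its other allele not given. Each of 2 two-colour Agilent arrays held 1 knockout and 1 control sample: replicate 1 was female with the knockout in the green dye Cy3, and replicate 2 was male with the knockout in the red dye Cy5. The sources used here do not state the number of embryos per sample. The name of the knockout, cKO (UE), refers to the ureteric epithelium, while the RNA came from the whole ureter, in which the mesenchyme around that epithelium is not the labelled target of the deletion. In such a bulk sample, fewer cells of a type and less RNA per cell cannot be told apart.

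As background, ligands of the TGF-beta superfamily bind paired serine/threonine kinase receptors, which phosphorylate the receptor-regulated SMADs: SMAD1, SMAD5 and SMAD9 downstream of BMPs, SMAD2 and SMAD3 downstream of TGF-beta and activin. These join the common partner SMAD4 and enter the nucleus, where the complex binds DNA together with other factors and turns target genes up or down. SMAD6 and SMAD7 are inhibitory members that are themselves transcribed in response to the signal and block the receptors or SMAD4 binding. In the developing ureter, BMP4 from the mesenchyme is known to act on both the epithelium and the smooth muscle progenitors.

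All 8 SMAD genes gave a signal in labelled knockout and control ureters, and none passed the test for a difference between them. By limma, with Benjamini-Hochberg adjustment over all 20104 genes kept and each gene read at its brightest probe, 0 of 8 genes passed an adjusted p of 0.05 (background 0.328%, 66 of 20104 genes), and 0 of 13 probes did when each probe was tested (background 0.234%, 62 of 26522 probes). At an unadjusted p under 0.05 there was 1 gene, Smad4 (background 4.55%). None of the 8 reached a 1.5-fold change the same way on the female and the male array (background 0.368%). The 8 mean log2 ratios of knockout over control ran from -0.33 for Smad4 to 0.12 for Smad6, with a median of -0.07, against -0.0044 over all genes.

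The probe sequences are shown because they are what each value rests on and because several genes were read at more than 1 place; those of 5 genes follow. Each is the first 30 bases of a probe of 60, written 5′ to 3′ with its position in build mm9 as the scanner output gives it. Capitals mark AATAAA, the hexamer of many polyadenylation signals, which stood in 4 of the 13 SMAD probes and in 12.6% of all probes. Between probes of different SMAD genes the longest shared run was 8 bases over 72 pairs, so no pair shared a stretch of over 15. Exon and UTR boundaries of that build were not used here.
Smad1, chr8:81863015-81863074, minus strand: ttaaagtacaggttaatcgttatgacatgc
Smad1, chr8:81865492-81865551, minus strand: ctctcttcagcccaaagctgcagattcaaa
Smad1, chr8:81880234-81880293, minus strand: tgggacaaaatgagcctcacatgccactga
Smad5, chr13:56838912-56838971, plus strand: tgtgagctgacatggaaaacagatattatt
Smad5, chr13:56843578-56843637, plus strand: gtacactagcagcgtgcttcaattctgcca
Smad9, chr3:54605068-54605127, plus strand: gtttagcatgtgatgcttaaaacacctgga
Smad3, chr9:63494574-63494633, minus strand: tataaacgcccttctAATAAActtttcacc
Smad3, chr9:63497492-63497551, minus strand: cgctgaaggtcagcgtataggtgatgtaca
Smad6, chr9:63800980-63801039, minus strand: cttttttaaagagaattatacagtagaact

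The Smad3 probe with the hexamer is the brighter of its pair, and the other lies 2918 bases upstream on the transcribed strand. The Smad1 probes span 17219 bases from start to start, and the one in the middle is named for the transcript AK084505 rather than for the RefSeq messenger RNA. The Smad5 probes lie 4666 bases apart and read stop codons in all 3 frames of the transcribed strand, as did the Smad9 probe.

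Smad4, the common partner of both branches and the floxed gene, was read by 2 probes on the minus strand of chromosome 18. At the brighter probe, at 73798670-73798729 in mm9, the normalised log2 intensity was 14.28 in the knockout and 14.86 in the control of replicate 1, and 14.44 and 14.52 in replicate 2. Both knockout samples were below both control samples, so the groups did not overlap. The log2 ratio was -0.58 on the female array and -0.08 on the male array (0.18 there with median centring of each array), a mean of -0.33 ± 0.36 (SD, n = 2 arrays), or 1.26-fold lower in the knockout. By limma the 95% interval of the mean was -0.65 to -0.02, that is 0.638 to 0.989 of the control. It rests on a moderated standard error of 0.143, which leans on a variance prior over all genes and not on these 2 values alone. Limma's adjusted p was 1.00 (unadjusted 0.0416).

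The other Smad4 probe, at 73799668-73799727 and 998 bases away, gave 12.67 in the knockout and 12.76 in the control of replicate 1, and 12.48 and 12.81 in replicate 2. Again both knockout samples lay below both controls. Its log2 ratio was -0.09 and -0.33, a mean of -0.21 ± 0.17 (SD, n = 2), or 1.16-fold lower, with an unadjusted p of 0.110 by limma. The arrays stood in opposite order at the probes: the female array had the larger difference at the brighter probe and the male array at the other. These orders were larger than the spread between spots of one array, since at the brighter probe the used spots ran from -0.60 to -0.55 on replicate 1 and from -0.12 to -0.01 on replicate 2, and at the other from -0.11 to -0.06 and from -0.37 to -0.29. On replicate 1 each probe lost 1 of its 4 spots as an outlier, and on replicate 2 all 4 were used.

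Whether either Smad4 probe lies in the deleted part was not determined here, so neither checks the genotype labels. With median centring in place of the intensity-dependent loess curve, the brighter probe read -0.78 on the female array and 0.18 on the male array, while the other probe stayed below 0 on both arrays, at -0.17 and -0.24. Of 6 settings that change the values on each array, the brighter probe was below 0 on both arrays in 5. The authors' deposited table, whose titles name the knockout first, ran as control over knockout when set against the scanner values, and in it the brighter probe stood at a signed fold of 1.49 and 1.02 and the other at 1.05 and 1.24.

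**Figure D1:**
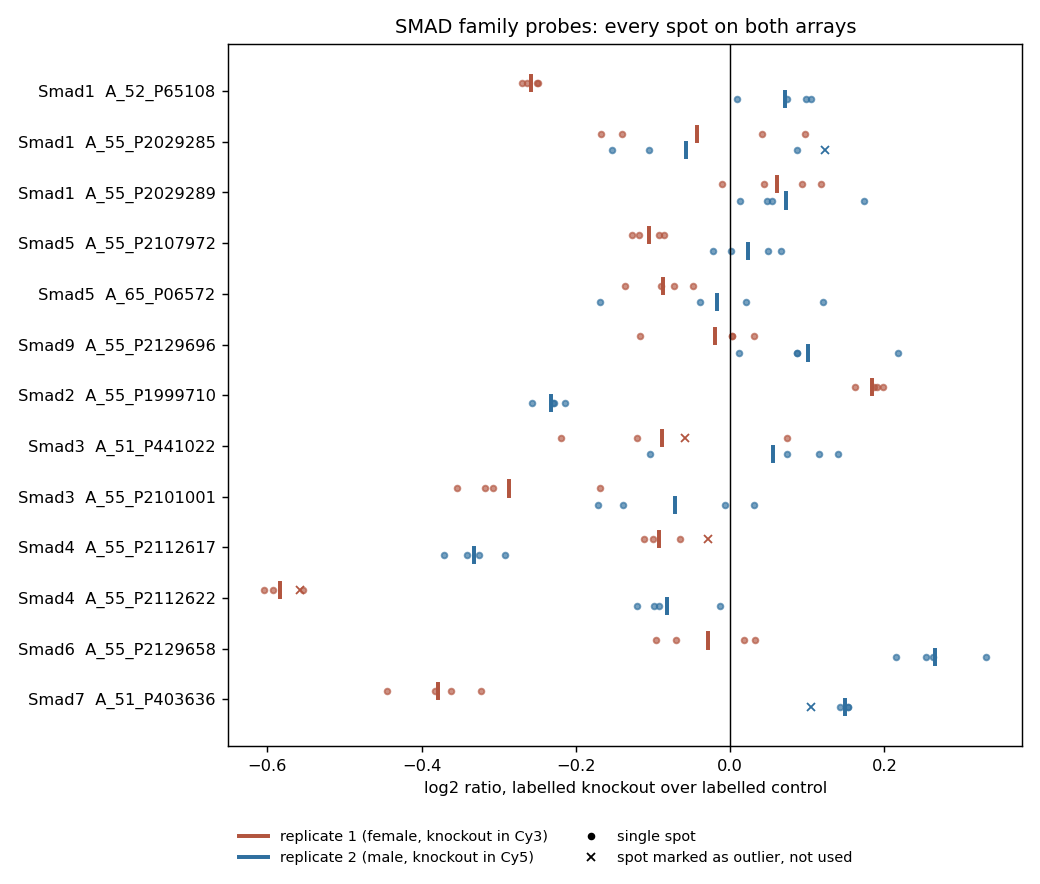
Log2 ratio of labelled knockout over labelled control (x axis) of every spot of the 13 SMAD probes (y axis), with replicate 1 in red, replicate 2 in blue, dots for spots, crosses for spots marked as outliers and not used, and bars for the array's mean. The spots of both Smad4 probes lie below 0 on both arrays (on the male array, the brighter probe reads 0.18 with median centring) and do not overlap between arrays, while Smad2, Smad6 and Smad7 lie on different sides of 0 on the 2 arrays or, for the red Smad6 spots, around it.

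Of the 3 receptor-regulated members of the BMP branch, none had the same sign on both arrays at its brightest probe. Smad1, whose product is phosphorylated by BMP type I receptors, read 10.05 in the knockout and 10.31 in the control of replicate 1, and 10.26 and 10.19 in replicate 2, at the most downstream of its 3 probes. The groups overlapped, and the log2 ratio of -0.26 and 0.07 gave a mean of -0.09 ± 0.23 (SD, n = 2; 95% interval -0.38 to 0.20). The middle probe of Smad1 read 7.08 and 7.02 in replicate 1 and 7.19 and 7.12 in replicate 2, a mean log2 ratio of 0.07 ± 0.0078. The third read 7.54 and 7.58, then 7.46 and 7.52, a mean of -0.05 ± 0.011. The 3 Smad1 probes did not give a common direction. With the authors' values their means were -0.11, 0.16 and 0.035, so the third turned, and with the processed signals -0.10, 0.16 and -0.09.

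Smad5, a close relative of Smad1 in the same branch, read 14.62 in the knockout and 14.72 in the control of replicate 1, and 14.63 and 14.61 in replicate 2. The groups overlapped, with a mean log2 ratio of -0.04 ± 0.09 (SD, n = 2; 95% interval -0.31 to 0.23). Its dimmer probe read 8.93 and 9.02 in replicate 1 and 8.95 and 8.97 in replicate 2, a mean of -0.05, with the knockout lower on both arrays, though not on the male array with median centring (0.024). Smad9, the third member of the branch, read 10.06 in the knockout and 10.08 in the control of replicate 1, and 10.06 and 9.96 in replicate 2. Its groups overlapped too, and its mean log2 ratio was 0.04 ± 0.09 (95% interval -0.23 to 0.31).

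Smad6, the inhibitor that acts mainly on the BMP branch and is a transcriptional target of that signal, read 12.72 in the knockout and 12.74 in the control of replicate 1, and 12.63 and 12.36 in replicate 2. The replicate 2 control was the low sample, and the groups overlapped because the replicate 1 control was above both knockouts. The log2 ratio was -0.03 on the female array and 0.27 on the male array, a mean of 0.12 ± 0.21 (SD, n = 2; 95% interval -0.17 to 0.40), the highest of the 8. The start of Smad6 is shown because it holds GTCTAGAC, the palindromic SMAD binding element, searched on both strands (the sequence is its own reverse complement) in windows from 250 bases before to 50 after each RefSeq start (GRCm38.p6). The palindrome stood in 70 of 32851 windows (0.213%), and among the members in 1 of the 5 genes with a window. The stretch covers chr9:64022056-64022159 of GRCm38.p6, minus strand, from 100 bases before the start to 4 after it, with the palindrome in capitals.
Smad6 start: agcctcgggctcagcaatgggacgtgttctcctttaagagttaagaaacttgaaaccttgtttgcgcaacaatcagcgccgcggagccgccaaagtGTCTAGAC

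The GC-rich motif GGCGCC, to which SMAD proteins also bind, stood in 11.9% of all windows and in those of Smad5 and Smad9. The third motif searched, CAGAC, stood in 49.6% of windows and, among the members, in that of Smad5. A match of letters is not a binding site, and no binding was measured in these samples.

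In the TGF-beta and activin branch, Smad3 was lower in the labelled knockout on both arrays, though not on the male array with median centring, and Smad2 differed in sign between the arrays. Smad3, which binds DNA directly, read 13.69 in the knockout and 13.98 in the control of replicate 1, and 13.67 and 13.74 in replicate 2. Both knockouts were below both controls. The mean log2 ratio was -0.18 ± 0.15 (SD, n = 2), or 1.13-fold lower, with a 95% interval of -0.45 to 0.10 that includes 0 and limma's unadjusted p at 0.178.

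The dimmer Smad3 probe read 7.19 in the knockout and 7.28 in the control of replicate 1, and 7.20 and 7.15 in replicate 2. Its groups overlapped, and its mean log2 ratio was -0.02. The 2 Smad3 probes had the same sign on the female array and opposite signs on the male array, where both were above 0 with median centring (0.095 and 0.017). The spot ranges of both Smad3 probes overlapped between the arrays.

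Smad2, whose main product needs a partner to bind DNA, was read at 76464903-76464962 on the plus strand of chromosome 18 (mm9). Its log2 intensity was 11.14 in the knockout and 10.95 in the control of replicate 1, and 10.98 and 11.21 in replicate 2. The high samples were the female knockout and the male control, both in the Cy3 channel, so the groups overlapped. The log2 ratio of 0.18 and -0.23 gave a mean of -0.02 ± 0.29 (SD, n = 2; 95% interval -0.33 to 0.28). The 4 spots of each array lay on one side of 0, from 0.16 to 0.20 on the female array and from -0.26 to -0.21 on the male array.

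Smad7, the inhibitor that acts on both branches by recruiting ubiquitin ligases to the receptors, was read at 75555371-75555430 on the plus strand of chromosome 18. It read 11.76 in the knockout and 12.14 in the control of replicate 1, and 11.89 and 11.74 in replicate 2. The female control was the high sample, and the groups overlapped. The log2 ratio was -0.38 on the female array and 0.15 on the male array, a mean of -0.11 ± 0.37 (SD, n = 2; 95% interval -0.44 to 0.21), and the spots of the arrays did not overlap.

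**Figure D2:**
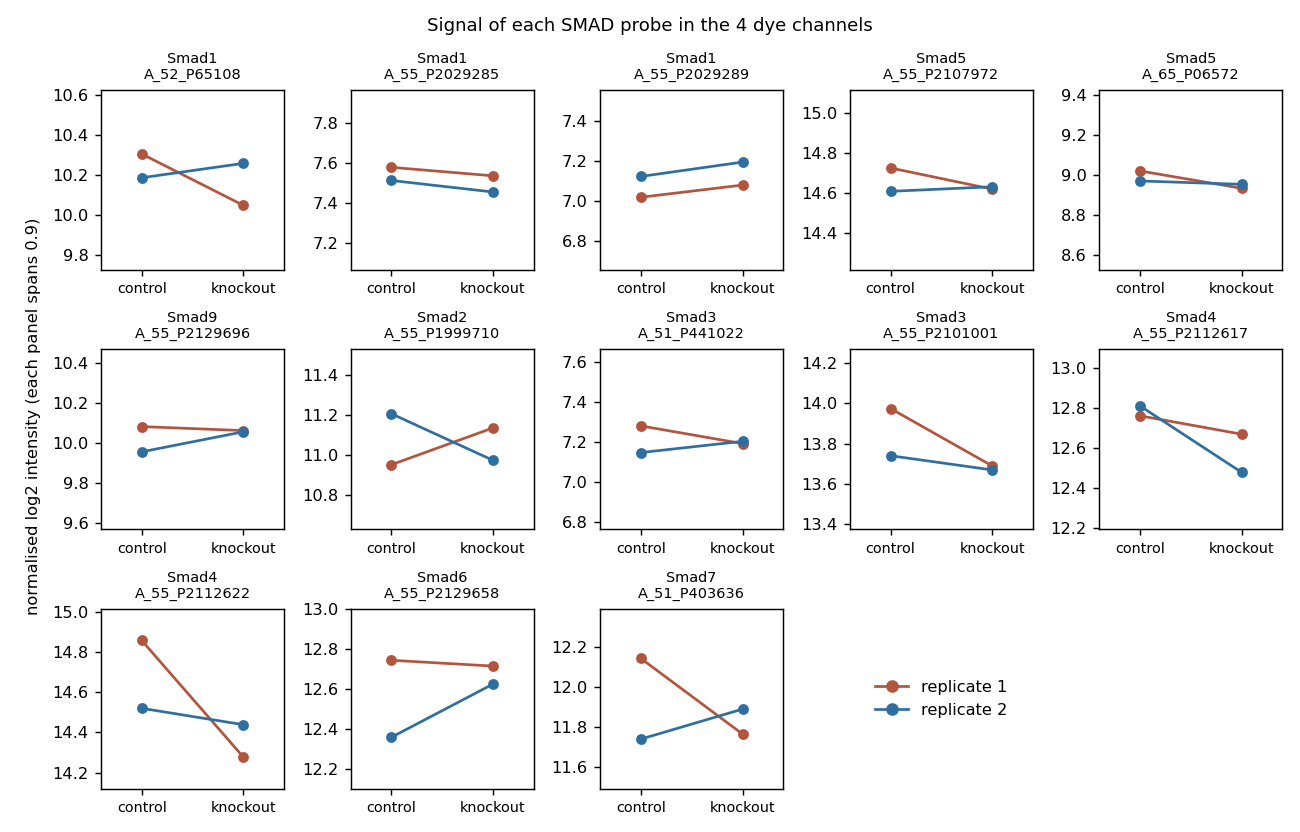
Normalised log2 intensity (y axis, each panel spanning 0.9) of the 13 SMAD probes in the labelled control and knockout channels (x axis), with a line joining the samples of an array, replicate 1 in red and replicate 2 in blue. Both lines fall from control to knockout for both Smad4 probes and the brighter Smad3 probe (with median centring the male line turns for Smad3 and for the brighter Smad4 probe), and the lines cross or part in direction for Smad2, Smad6, Smad7 and the brightest probes of Smad1 and Smad5.

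Across the family, 6 of 8 genes had log2 ratios of opposite sign on the 2 arrays, and 53.7% of all genes did. By probe it was 7 of 13, beside 54% of all probes. Knockout and control channels did not overlap for 2 of 8 genes, Smad3 and Smad4, beside 29.2% of all genes. The median log2 ratio of the 8 was -0.18 on the female array and 0.05 on the male array, beside -0.0093 and -0.0034 over all genes. The channel dyed with Cy5 was the brighter on both arrays for 5 of the 6 genes of opposite sign. For Smad2 it was the Cy3 channel. With the dyes swapped, any gene of opposite sign is brighter in the same dye on both arrays. How such genes split between Cy5 and Cy3 over all genes was not counted, so the split in the family has no background to stand beside. Since the dyes were swapped between the female and the male array, effects of sex and of dye cannot be told apart. With median centring all 8 genes had opposite signs.

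Spots of a probe are repeats on one array and carry no difference between embryos. Their SD over the 13 probes and both arrays ran from 0.0056 to 0.149, with a median of 0.0498 (log2). The spots of the 2 arrays did not overlap in 7 of 13 probes: the brightest of Smad1 and of Smad5, both of Smad4, and those of Smad2, Smad6 and Smad7. For these the difference between arrays was thus larger than the spread between spots.

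By mean log2 ratio, Smad4 stood above 1.69% of all genes, Smad3 above 9.32%, Smad7 above 18.9% and Smad1 above 23.3%. Smad5 stood above 37.9%, Smad2 above 43.5%, Smad9 above 64.5% and Smad6 above 85.9%. Neighbours in this order did not differ beyond their SD between arrays. Measured by the distance between the 2 log2 ratios, the genes nearest to the brighter Smad4 probe were Slc7a5 (-0.58 and -0.08), D430019H16Rik, Tmem217, Zfp469 and Brinp1. This likeness rests on 2 arrays, and 102 of 20103 other genes lay within 0.1 of Smad4.

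**Figure D3:**
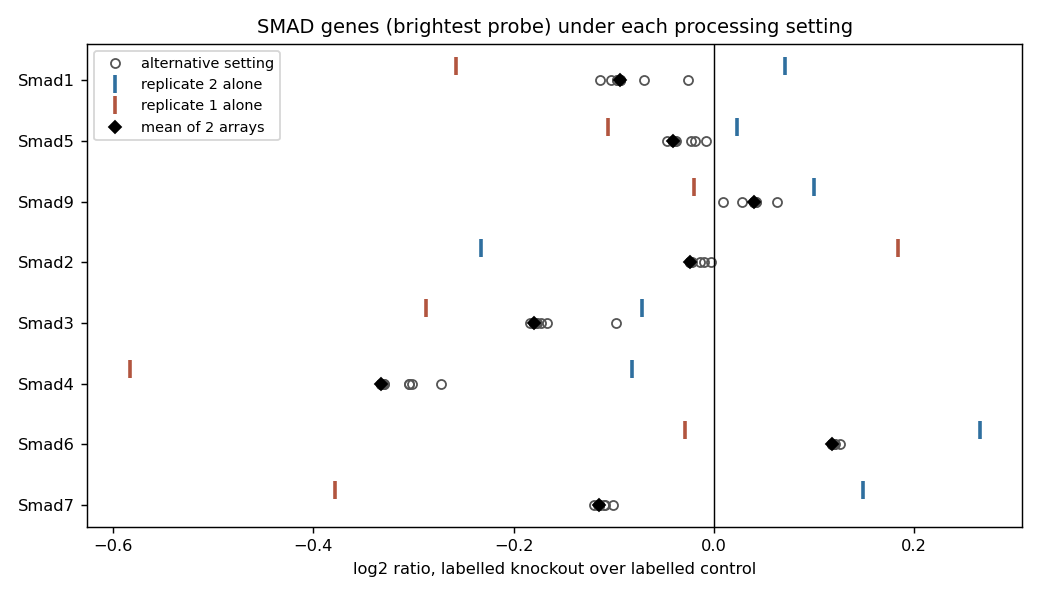
Log2 ratio of labelled knockout over control (x axis) of the 8 SMAD genes at their brightest probe (y axis), with a diamond for the mean of 2 arrays, open circles for the same mean under each alternative setting, and a bar for each array alone, replicate 1 in red and replicate 2 in blue. The 2 arrays stand further apart than the settings for each gene, and Smad4 keeps the lowest mean at -0.33 to -0.27.

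Genes that bind, modify or respond to SMAD proteins were read from 8 lists of 93 gene names, of which 87 were measured. Of these 87, 1 was higher in the labelled knockout by limma's adjusted p (Msx2), 0 were lower and 86 did not pass. Over all genes 0.328% passed. At an unadjusted p under 0.05 by limma, 5 of the 87 were higher and 5 lower, beside 4.55% of all genes in either direction. The median log2 ratio of the 87 was -0.03, beside -0.0044 over all genes. Bambi, Hjv, Runx2 and Grem1 are on the array but stood below the filter on dim probes. Cripto and Ctgf were not found by name, and Ctgf is an older name of Ccn2, which was listed too and measured.

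The type I and II receptors, the kinases that phosphorylate SMADs, had 0 of 12 members past the test and a median of -0.13. Below 0 on both arrays were 9 of 12 members, beside 24.6% of all genes. It was 7 with median centring. It was also 7 with the mean over kept probes, where 2 were above 0 on both arrays. The share of all genes under these 2 settings was not counted. Acvr1c, the receptor for nodal-like ligands also called ALK7, was -0.54 and -0.08 (mean -0.31 ± 0.33). It was dim, with log2 intensities from 7.01 to 7.59, and 2 of 4 knockout spots were well above background on replicate 2. Its mean was -0.73 with the processed signals (adjusted p 0.0948 by limma) and -0.78 with the authors' values (adjusted p 0.0633). Acvr1, a BMP type I receptor also called ALK2, was -0.22 on each array (SD 0.0015) at its brightest probe. That closeness did not hold under other settings. With median centring Acvr1 was -0.37 on the female and -0.03 on the male array. As the mean over its kept probes it was -0.11 and -0.17. Neither Acvr1c nor Acvr1 passed, and the adjusted p of each was 1.00 by limma. Among 5 measured co-receptors none passed: Rgmb, a BMP co-receptor, was -0.37 and -0.26 (mean -0.31 ± 0.08, adjusted p 0.946). Cfc1, a co-receptor for nodal, entered the test through the knockout channels alone: in the control it was well above background in 2 of 4 spots on replicate 1 and in 0 of 4 on replicate 2. Its log2 ratio of 0.57 and 0.94 (mean 0.75 ± 0.26, adjusted p 0.0546) is thus measured on both sides on 1 of 2 arrays. From the scanner's processed signals Cfc1 read 2.04 and passed (adjusted p 1.4e-05 by limma), against the same dim control.

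Among the 11 ubiquitin ligases that act on SMADs or their receptors none passed, and the median was -0.03. Nedd4l, a ligase for phosphorylated SMAD2 and SMAD3, was -0.39 and -0.31 (mean -0.35 ± 0.06, adjusted p 0.735). Skp2, an F-box protein, was -0.53 and 0.16 (mean -0.18 ± 0.49). Among the 11 phosphatases and deubiquitinases the median was also -0.03 and none passed, with Ctdsp2, a phosphatase of SMADs, at a mean of -0.23 ± 0.06 and Usp9x, a deubiquitinase of SMAD4, at 0.14 ± 0.07.

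Of the 13 anchors and inhibitory binding proteins none passed, with a median of -0.13. Hgs, which presents SMADs at the endosome, was -0.51 and 0.06 (mean -0.22 ± 0.40), and Pmepa1, which sequesters receptor-regulated SMADs, was -0.24 and -0.18 (mean -0.21 ± 0.04). The 8 corepressors had a median of -0.05 and none passed. Ctbp1 was -0.47 and 0.06, and Sap30, part of the Sin3 complex, was 0.13 and 0.17. Of the 14 nuclear partners none passed, with a median of -0.02. Zfp423, a zinc-finger partner of BMP-activated SMADs, was -0.48 and -0.15 (mean -0.31 ± 0.24), and Jun, a subunit of AP-1, had a mean of -0.22 ± 0.21.

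The feedback and direct response genes were the list with a member past the test, 1 of 13, beside 0.328% of all genes. Msx2, a homeobox gene known as a BMP target, was 0.65 and 1.28 (mean 0.96 ± 0.44, SD, n = 2), or 1.95-fold higher in the labelled knockout, with limma's adjusted p at 0.0359. It did not pass with median centring, without the filter on dim probes, with the channels unpaired or with outlier-marked spots kept, where the adjusted p was 1.00, 0.826, 0.146 and 0.0728. Id1, which encodes an inhibitor of helix-loop-helix factors and is a standard BMP response gene, was 0.60 and 0.46 (mean 0.53 ± 0.10, adjusted p 0.197). The median of the list was 0.10, with 7 members above 0 and 4 below 0 on both arrays, beside 21.7% and 24.6% of all genes. These were 6 and 1 with median centring, where the share of all genes was not counted.

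**Figure D4:**
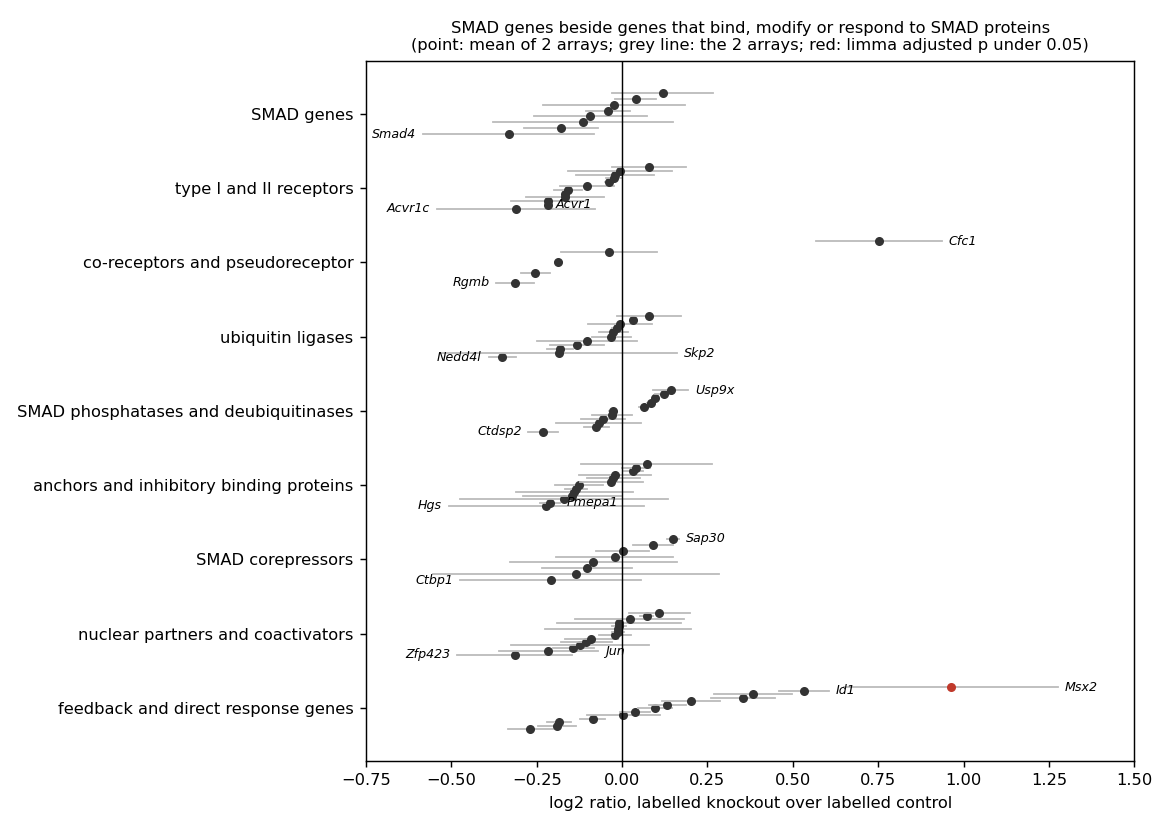
Log2 ratio of labelled knockout over control (x axis) of the 8 SMAD genes and of 87 genes in 8 lists (y axis), where a point is the mean of 2 arrays, a grey line joins the arrays and red marks an adjusted p under 0.05. Msx2, at 0.96, is the red point, and Smad4, at -0.33, has the lowest mean of the SMAD genes.

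Markers of cell types were read beside these values. Of 20 epithelial markers, all measured, 15 were above 0 on both arrays, beside 21.7% of all genes, with a median of 0.22 and a summed intensity in the knockout of 1.15 and 1.08 times that of the control. In this list 1 gene passed the test, beside 0.328% of all genes: Prom2 (0.73 ± 0.16, adjusted p 0.0477 by limma). It did not pass with median centring, without the filter on dim probes, with the channels unpaired or with outlier-marked spots kept, where the adjusted p was 1.00, 0.717, 0.602 and 0.0797. Of 7 genes listed as mesothelial markers 1 passed, beside 0.328% of all genes: Upk3b (0.77 ± 0.24, adjusted p 0.0477 by limma). Upk3b is a uroplakin gene, so in a ureter it is not particular to mesothelium. Under the same settings its adjusted p was 1.00, 0.748, 0.0825 and 0.0797. Its control channels were dim, at 7.09 and 6.96 (log2), with 3 of 4 spots well above background on replicate 2. Of the 7 markers, 4 were above 0 and 1 below 0 on both arrays, beside 21.7% and 24.6% of all genes, with a median of 0.13. Of 15 markers of the ureteric mesenchyme, 8 were below 0 on both arrays, beside 24.6% of all genes, with a median of -0.10 and a summed ratio of 0.836 and 0.977. Of 9 measured markers of neurons and glia, 8 had opposite signs on the arrays, beside 53.7% of all genes. Their median was -0.45 on the female and 0.63 on the male array, with summed ratios of 0.695 and 1.03. The summed ratios were 0.911 and 0.844 for endothelium, 1.63 and 1.10 for skeletal muscle and 0.938 and 1.13 for smooth muscle. They were 1.04 and 1.07 for macrophages, 0.983 and 1.09 for mesothelium and 0.937 and 1.07 for nephron and kidney cortex. The part of tissue makeup in the SMAD values was not tested.

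The share of probes well above background was 69.1% and 66.5% in the knockouts and 67.6% and 68.6% in the controls, no spot was saturated, and all 13 SMAD probes had at least 3 of 4 spots well above background in every channel. In a simulation on 2 arrays and 20104 genes, the test called 4 of 50 genes changed by 1.3-fold, 15 of 50 changed by 1.5-fold and 50 of 50 changed by 2-fold. The mean difference of Smad4, 1.26-fold, was smaller than the smallest of these.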

How the data were processed

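Arrays with both dyes, holding 2 labelled knockout and 2 labelled control ureters, were used, from 150 ng of RNA per sample per the labels. Spot intensity was deposited by the authors as mean signal and local background of each dye (software Agilent Feature Extraction 10.7.3.1, as named in the file headers and in the submitters' processing notes). The deposited log10 ratio of red over green was used only to check the channels. A deposited table of the authors gives each probe a score in the form of a signed fold, of unstated scale and floor, with a median of 1 on each array. On a signed log2 scale it had correlations of 0.822 and -0.739 with red over green, which by the dyes is control over knockout.

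The mean signals were background-corrected by normexp (offset 50) and arrays were normalised by loess with limma 3.58.1 in R 4.3.3. Control spots and outlier-marked spots were left out, and spots of a probe were averaged. Probes entered the test when, in the knockout or in the control channels, each array had at least 2 of the 4 spots well above background. A gene was its brightest kept probe. Log2 ratios were tested against 0 with lmFit and eBayes (1 residual degree of freedom, 9.21 prior), two-sided, with Benjamini-Hochberg adjustment. All 95% intervals use the same moderated standard errors and degrees of freedom, most of which come from the prior over all genes. Accessions and symbols were updated through RefSeq (28328 probes by accession, 3400 by symbol, 243 by older symbol, 7458 as in the scanner output). The test was also tried on simulated data, with variances drawn from the prior fitted to these arrays.

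Genes named were all members, the 2 genes with the largest absolute mean of each list and every gene called in one, the 5 genes nearest to Smad4, and up to 2 markers per cell type. Members, lists and tests were chosen with earlier results of these data known. Nothing in the labels says that the replicates came from separate litters, so p-values cannot be taken to measure a spread between litters. They rest on the spread between these samples, moderated by a variance prior over all genes. The 13 alternatives covered background correction, normalisation, filter, probe choice, the authors' values, the variance prior, channels unpaired and each array alone; keeping outlier-marked spots was added after seeing the data. Figures were drawn with matplotlib 3.10.9. The number of arrays limits the precision.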

Additional observations from a re-analysis of the deposited data

Results flagged for a closer look

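In 6 of 8 SMAD genes the labelled knockout stood on opposite sides of the control on the female and the male array. Each array held 1 sample of each group. Over all genes 53.7% had opposite signs on the 2 arrays. By probe it was 7 of 13 in the family, beside 54% of all probes. Smad7 was -0.38 on the female and 0.15 on the male array (log2 knockout over control). Smad1 was -0.26 on the female and 0.071 on the male array. Smad5 was -0.11 on the female and 0.024 on the male array. Smad6 was -0.029 on the female and 0.27 on the male array, and Smad9 was -0.020 and 0.10. Smad2 ran the other way, 0.18 on the female and -0.23 on the male array. These differences between the arrays were not tested, since each rests on 1 array per sex, and sex and dye orientation changed together.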

How the results depend on the processing

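Of 12 settings with both arrays, 5 (Aquantile, both filters, the variance trend and unpaired channels) leave the SMAD ratios as they are and can move only the p-values. In the other 7 the means of all 8 genes kept their direction. None was called in any of the 12 (lowest adjusted p by limma 0.848, for Smad4 with a variance trend). Each array alone gave 1 sample per group and so no test: the lowest and highest values were -0.58 and -0.08 for Smad4, -0.29 and -0.07 for Smad3, -0.38 and 0.15 for Smad7, -0.26 and 0.07 for Smad1, -0.23 and 0.18 for Smad2, -0.11 and 0.02 for Smad5, -0.03 and 0.27 for Smad6, and -0.02 and 0.10 for Smad9. No SMAD gene was past an unadjusted p of 0.05 with the processed signals, median centring, no filter on dim probes or the authors' values.

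Of the pathway genes 1 was called in the main setting. The count was 2 with processed signals, uncorrected background, an offset of 0, the mean over probes, the authors' values or a variance trend. The second gene was Cfc1 each time, which entered the test through the knockout channels alone and was dim in the control. The count was 0 with median centring, no filter on dim probes, unpaired channels (no replicate block) and outlier-marked spots kept. Of all genes, 66 were called, against 194 with the processed signals, 115 without background correction, 131 with an offset of 0, 191 with the authors' values, 156 with a trend, 26 with unpaired channels, 42 with outlier-marked spots kept, and 0 with median centring and without the filter. Of all probes, 62 were called, against 276 with the processed signals, 189 without background correction and with an offset of 0, 186 with the authors' values, 176 with a trend, and 0 with median centring and without the filter. Genes past 1.5-fold numbered 74, against 154 with the processed signals, 145 with the authors' values and 233 to 530 with 1 array; pathway genes past it numbered 1, against 2 with the authors' values, the processed signals, an offset of 0 or uncorrected background, and with 1 array. Skp2 turned to 0.063 with the authors' values. The cause was not tested.

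In the simulation of 2 arrays, few differences of 1.3-fold were called, and the real arrays may differ from it. The probes' place in the exons of Smad4 was not determined, and whole ureters hold both epithelium and mesenchyme.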

Other observations

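The sex labels were checked with transcripts of the sex chromosomes, as normalised log2 intensity. The Y-linked Ddx3y read 9.04 in the female knockout and 7.99 in the female control, and 12.42 and 12.21 in the male knockout and control. Eif2s3y, also Y-linked, read 8.94 and 8.05 in the females and 12.21 and 12.03 in the males. Xist, the RNA of the inactive X chromosome, read 12 and 12.09 in the females, 8.38 in the male knockout and 9.95 in the male control. The order of the sexes followed the labels in both groups for these 3 genes, and within a sex the knockout and control differed most for Xist in males, by -1.57, and for Ddx3y in females, by 1.05.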
